A study of Rattus norvegicus with 6 samples.

Results

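The Kruppel-like factors described here are 10 transcription factor genes, Klf2, Klf3, Klf4, Klf5, Klf6, Klf7, Klf9, Klf10, Klf13 and Klf15, out of 14506 genes that the array measured by a transcript cluster with a single gene symbol. A transcript cluster is the set of array probes summarised as 1 transcript, and where a gene had several, the brightest on average across the 6 arrays was used. All 10 were measured, and no filter on low values was applied. The study compared primary motor neurons from embryonic day 13.5 rats after 2 days in culture. Cultures received 1 microM camptothecin, a poison of topoisomerase 1, or the solvent DMSO, for 2 h, and there were 3 arrays for each treatment. The samples are labelled biological replicates, but whether they came from separate litters or dissections is not stated, so the p-values cover only the spread seen among the 6 arrays, part of which may be technical. No strain, allele or sex is given, and both treatments share the same culture protocol.

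Kruppel-like factors bind GC-rich and CACCC elements through zinc fingers at the C-terminal end of the protein, and their N-terminal parts recruit activators or repressors. Many are early response genes whose transcripts are short-lived. In neurons of the central nervous system, Klf4 and Klf9 are known to restrain axon growth, while Klf6 and Klf7 are known to support it. The related Sp factors recognise the same kind of GC box.

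Promoter sequences of 7 of the 10 members were matched by symbol in the RefSeq promoter table of the rat assembly GRCr8, with no entry for Klf2, Klf10 and Klf13. Klf9 and Klf7 are shown because one rose and the other fell, and Klf11 because this paralog of Klf10 rose with it. The rise of Klf9 was less stable across settings than that of Klf4, as described below. Each run is the 250 bases before the annotated start, 5′ to 3′ on the gene's strand, and capitals mark motif matches on either strand. The motifs were the GC box GGGCGG, the Kruppel-like element CACCC, the cyclic AMP response element TGACGTCA and its shorter form TGACG. The others were the TATA motif TATAAA, the CArG box and TGANTCA. With N any base, TGANTCA is looser than the AP-1 consensus, which has C or G there. The shorter form lies within the longer, so a match to the latter counts for both.
Klf9 (chr1:230126396-230126645, plus strand): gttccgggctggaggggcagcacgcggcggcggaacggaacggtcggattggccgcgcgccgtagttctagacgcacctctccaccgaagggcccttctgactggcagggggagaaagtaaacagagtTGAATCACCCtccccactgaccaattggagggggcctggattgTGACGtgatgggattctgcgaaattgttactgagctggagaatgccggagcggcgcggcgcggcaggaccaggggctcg
Klf7 (chr9:73020057-73020306, minus strand): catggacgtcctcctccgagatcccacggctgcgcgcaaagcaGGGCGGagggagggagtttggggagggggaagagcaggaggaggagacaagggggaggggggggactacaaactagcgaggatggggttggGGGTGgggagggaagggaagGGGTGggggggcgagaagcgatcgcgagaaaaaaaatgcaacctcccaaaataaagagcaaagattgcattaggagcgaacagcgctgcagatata
Klf11 (chr6:47014198-47014447, plus strand): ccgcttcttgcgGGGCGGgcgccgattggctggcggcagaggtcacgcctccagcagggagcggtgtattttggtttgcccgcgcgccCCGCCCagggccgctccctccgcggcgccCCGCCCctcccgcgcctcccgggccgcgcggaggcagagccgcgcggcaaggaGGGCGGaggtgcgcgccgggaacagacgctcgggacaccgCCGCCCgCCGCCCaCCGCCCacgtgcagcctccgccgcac

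The Klf9 run held a CACCC match that begins 117 bases before the start, overlapping a TGANTCA match, and a TGACG match at 79 bases. That TGANTCA match reads TGAATCA, which is not the AP-1 consensus. Klf7 held 1 GGGCGG match at 207 bases and 2 CACCC matches, at 116 and 96 bases. Klf11 held 7 GGGCGG matches, the first at 238 bases, and no other motif. Klf4 also rose but is not shown, and its run held 2 TATAAA matches, at 146 and 78 bases, and no other motif. Over all 33469 promoters of 300 bases (250 before and 50 after the start), 33.1% held the GC box and 54.9% the Kruppel-like element. The cyclic AMP response element was held by 1.83%, its shorter form by 21.2%, the loose TGANTCA by 7.33%, the TATA motif by 14.2% and the CArG box by 1.64%. Among the members with a promoter, Klf6 alone held a CArG box, the element bound by serum response factor. A match is only a description of these letters.

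After camptothecin Klf10, Klf4 and Klf9 rose and Klf7 fell, while the other 6 members did not pass the test. The largest change was that of Klf10, which rose 2.51-fold. Klf4 rose 1.51-fold and Klf9 1.33-fold, and the level of Klf7 in DMSO was 1.45-fold that in camptothecin. The test was limma over all 29214 clusters with Benjamini-Hochberg adjustment and a threshold of 0.05, and the words rose and fell are used only past it. So 3 of 10 members were higher, where 11.3% of all genes were, and 1 of 10 was lower, where 9.35% were. The 3 camptothecin arrays all lay above the 3 DMSO arrays for 5 of 10 members (27.1% of all genes) and all below for 1 (15.5% of all genes). The median log2 change of the members was 0.093, beside 0.060 for all genes. With each array centred on 49 ribosomal protein genes, a scaling that moves the median over all clusters by -0.26, the split was 2 higher and 3 lower, where 2.3% of all genes were higher and 32% lower. As deposited, 25 of those 49 ribosomal protein genes were called higher and 0 lower by limma (0 lower at an unadjusted p under 0.05). The sample titles name motor neurons and no other cells. If the cultures held several cell types, fewer cells of a type and less RNA per cell cannot be told apart.

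**Figure D1:**
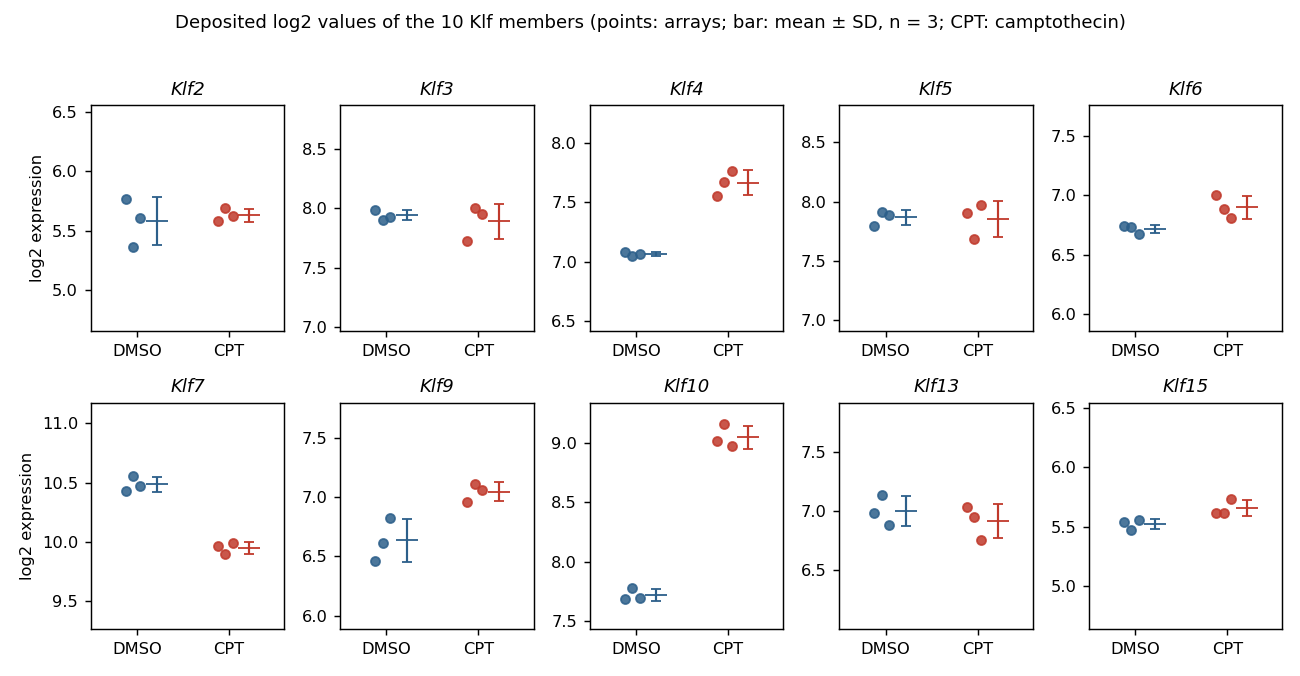
Deposited log2 values of the 10 members on each array, DMSO in blue and camptothecin (CPT) in red, with the mean and SD of 3 arrays beside the points. Every panel covers the same height on the log2 scale. Klf10, Klf4 and Klf9 lie higher and Klf7 lower with camptothecin, with no overlap between the groups, and Klf6 and Klf15 also lie apart by small amounts.

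The median log2 value of an array was 6.311 to 6.332 in the camptothecin group and 6.222 to 6.283 in the DMSO group, so these did not overlap. Correlations between arrays (Pearson's r across clusters) were 0.992 to 0.995 inside a group and 0.983 to 0.985 across groups, and the number of arrays limits the precision. Of 10 measured motor neuron markers 6 were dim, meaning that their mean lay below the median of all clusters (6.28), and Mnx1 and Chat were not measured by a cluster of their own. The dim ones included the transcription factor Isl1 (5.64 to 5.91 in DMSO) and the vesicular acetylcholine transporter Slc18a3 (6.07 to 6.220 in DMSO). Limma called 3 of the 10 higher, the neurofilament genes Nefh (0.59) and Nefm (0.42) and the dim peripherin gene Prph (0.31). It called 0 of the 10 lower (3 lower at an unadjusted p under 0.05), where 11.3% of all genes were higher and 9.35% lower. With ribosomal centring 1 was higher and 5 were lower, where 2.3% of all genes were higher and 32% lower. The summed linear level of the 10 was 2602 to 2905 with camptothecin and 2259 to 2297 with DMSO. Nefm, by far the brightest of them (10.54 to 10.58 in DMSO), makes up most of that sum, which says little about the others. The median log2 change of the 10 was -0.046, beside 0.060 for all genes. Of 9 spinal interneuron markers none was dim, and 5 fell and 0 rose by limma (1 higher at an unadjusted p under 0.05), where 9.35% of all genes fell and 11.3% rose. Their summed level, on the linear scale, was 3139.7 to 3301 with camptothecin and 5002 to 5325 with DMSO. The 5 were Gad1, Gad2, Slc6a5, Slc17a6 and Pax2, with annotated spans in GRCr8 of 40.1 to 91.2 kb. The 4 not called (Lbx1, Slc32a1, Lhx1 and Lhx5) span 1.82 to 8.44 kb. Slc32a1, a marker of inhibitory cells like Gad1 and Gad2, changed by 0.23, with all camptothecin arrays above the DMSO arrays. Whether the number of interneurons changed was not tested. Limma called 1 of 7 fibroblast markers (Fn1), 1 of 9 astroglial and progenitor markers (Pax6) and 1 of 5 oligodendrocyte and Schwann lineage markers (Mbp), each lower, and 0 of 9 microglial and blood markers (2 higher at an unadjusted p under 0.05). With ribosomal centring 4, 3, 3 and 1 of these lists' genes were lower, where 32% of all genes were. The part of these cell types in the changes of the Klf genes was not tested.

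Klf10 and Klf11 are known as the TGF-beta inducible early genes and encode repressors that recruit Sin3A. Klf10 (cluster 10903459) measured 9.01, 9.16 and 8.97 with camptothecin and 7.68, 7.78 and 7.70 with DMSO on the log2 scale. The lowest camptothecin array lay more than a log2 unit above the highest DMSO array. The log2 change was 1.33 (SE 0.076, 95% confidence interval 1.15 to 1.51, n = 3 per treatment, limma adjusted p = 9.72e-05). This was the rise of rank 17 among the 14506 genes. Klf11, which is not among the 10 members, measured 7.56, 7.56 and 7.62 with camptothecin and 6.69, 6.66 and 6.79 with DMSO. Its arrays did not overlap either, and it rose by 0.86 on the log2 scale (SE 0.067, limma adjusted p = 0.000359). Both rises passed under all 17 alternative settings of scaling, filtering, testing and arrays left out, with values of 1.07 to 1.37 for Klf10 and 0.60 to 0.90 for Klf11.

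Klf4, one of the reprogramming factors and a restraint on axon growth, measured 7.55, 7.67 and 7.77 with camptothecin and 7.08, 7.05 and 7.07 with DMSO. The DMSO arrays lay close together and all camptothecin arrays lay above them. The log2 change was 0.60 (SE 0.075, 95% confidence interval 0.42 to 0.77, limma adjusted p = 0.00284), and it passed in all 17 alternatives (0.33 to 0.65). A dimmer cluster with the same symbol (10873814) measured 5.50, 6.15 and 5.65 with camptothecin and 5.43, 5.34 and 5.45 with DMSO. It changed by 0.36 (SE 0.16, limma adjusted p = 0.181), in the same direction but without passing the test.

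Klf9, a basic transcription element binding protein that thyroid hormone and glucocorticoids induce, measured 6.96, 7.11 and 7.06 with camptothecin and 6.46, 6.62 and 6.82 with DMSO. The DMSO arrays were spread more widely (SD 0.18) than the camptothecin arrays (SD 0.079), and replicate 3 of DMSO was the nearest to them. The log2 change was 0.41 (SE 0.10, 95% confidence interval 0.16 to 0.66, limma adjusted p = 0.0369). This call was the least stable of the 4, since Klf9 passed in only 7 of 17 alternatives. It was lost with quantile normalization again (adjusted p = 0.0526), with either centring (0.0612 for array medians and 0.308 for ribosomal protein genes), at a threshold of 0.01 and with limma's treat against a 1.2-fold change (0.784). It was also lost without any single array other than DMSO replicate 3 (adjusted p from 0.0542 to 0.108), and without that array it was 0.0250 with a change of 0.50.

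Klf7 and Klf6 are the closely related pair that supports axon growth, and Klf7 is needed for the survival of some sensory neurons. Klf7 (cluster 10928524) measured 9.965, 9.896 and 9.996 with camptothecin and 10.43, 10.55 and 10.47 with DMSO. All camptothecin arrays lay below all DMSO arrays. Klf7 fell by 0.53 on the log2 scale (SE 0.069, 95% confidence interval -0.70 to -0.37, limma adjusted p = 0.00308), and it passed in 16 of 17 alternatives, all but treat against a 1.2-fold change (adjusted p = 0.0622). Klf6, also known as a tumour suppressor, measured 7.001, 6.887 and 6.806 with camptothecin and 6.74, 6.73 and 6.68 with DMSO. Its groups did not overlap, but the change of 0.18 (SE 0.074, 95% confidence interval 0.0062 to 0.36) did not pass the test (limma adjusted p = 0.145), and it was -0.081 under the ribosomal centring.

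Klf5, a regulator of epithelial and smooth muscle growth, was carried by 2 clusters that differed. The brighter one (10835837), which the rule takes, measured 7.90, 7.68 and 7.97 with camptothecin and 7.80, 7.91 and 7.89 with DMSO, and the groups overlapped. Its change was -0.014 (SE 0.092, 95% confidence interval -0.23 to 0.20, limma adjusted p = 0.939). The other (10781829) measured 7.66, 7.64 and 7.66 with camptothecin and 7.28, 7.49 and 7.38 with DMSO, with no overlap, and it passed the test narrowly (0.27, SE 0.075, limma adjusted p = 0.0488). In GRCr8 Klf5 lies on chromosome 15. Of the 20 named clusters nearest to the brighter cluster by identifier number, 20 belong to genes of chromosome 3, and of those nearest to the other cluster 17 belong to chromosome 15. For the clusters of the other 9 members the commonest chromosome among the nearest 20 was that of the gene. The same held for the other Klf and Sp genes measured except Sp4, a gene of chromosome 6, for which 10 of 20 belong to chromosome 7. Which transcript the brighter cluster measures was not tested. With Klf5 taken by the chromosome 15 cluster, an alternative added after seeing the data, 4 members were higher. That call held in 4 of 15 further alternatives, and it was lost with any single array left out (adjusted p from 0.0579 to 0.142), with the replicate number as a block (0.103) and with either centring (0.152 and 0.955).

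**Figure D2:**
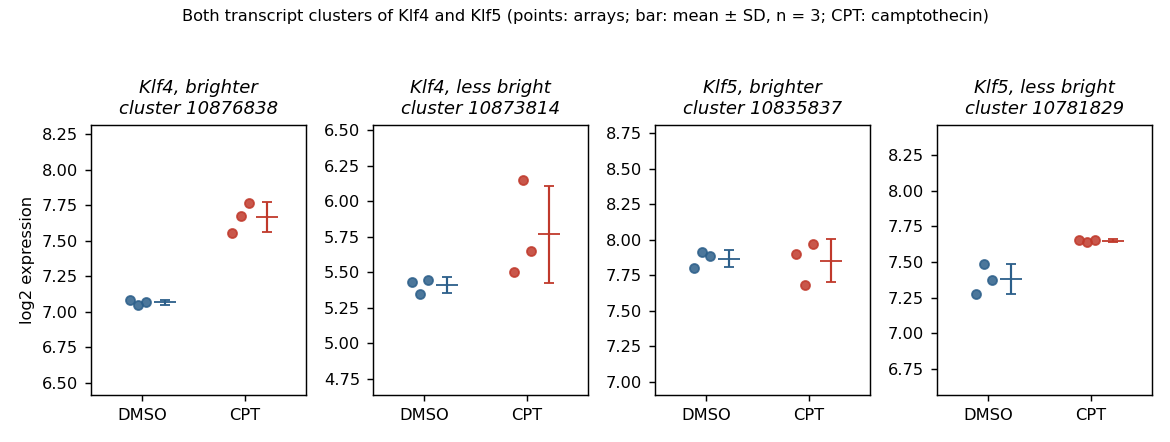
Log2 values of both clusters of Klf4 (left pair) and Klf5 (right pair) on each array, DMSO in blue and camptothecin (CPT) in red, with the mean and SD of 3 arrays. The change of Klf4 was 0.60 for the brighter cluster and 0.36 for the other, and that of Klf5 was -0.014 and 0.27.

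The remaining members overlapped between treatments or differed by little. Klf2, which maintains quiescence in endothelium and T cells, was dim, at 5.58, 5.69 and 5.63 with camptothecin and 5.77, 5.36 and 5.61 with DMSO. Its change was 0.052 (95% confidence interval -0.21 to 0.31), and the groups overlapped. Of 10 endothelial and mural markers 9 were dim, with a summed linear level of 575 to 583 with camptothecin and 578 to 601 with DMSO, and limma called 0 of them (1 higher and 2 lower at an unadjusted p under 0.05). With ribosomal centring 5 of them were lower, where 32% of all genes were. Klf15, a metabolic regulator of muscle and liver, was also dim, at 5.61, 5.61 and 5.74 with camptothecin and 5.54, 5.47 and 5.55 with DMSO. The groups did not overlap, but the change of 0.13 (95% confidence interval -0.028 to 0.30) did not pass (limma adjusted p = 0.235). Klf3, a repressor that binds CtBP, changed by -0.048 (95% confidence interval -0.26 to 0.16), with 7.724 to 7.997 on the camptothecin arrays and 7.90 to 7.99 on the DMSO arrays. Klf13, a relative of Klf9, changed by -0.085 (95% confidence interval -0.33 to 0.16), with 6.76 to 7.04 and 6.88 to 7.13. Klf3 and Klf13 overlapped between treatments as deposited. Centred on the ribosomal protein genes they fell by 0.31 and 0.35 on the log2 scale (limma adjusted p = 0.0271 and 0.0420). These intervals do not show that a gene did not change.

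**Figure D3:**
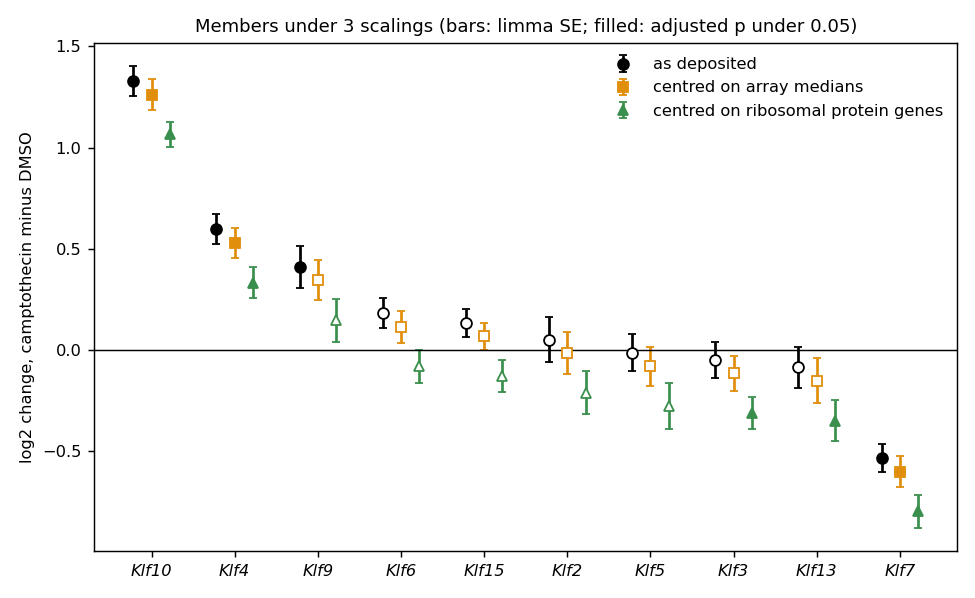
Log2 change of each member under 3 scalings, as deposited (circles), with arrays centred on their medians (squares) and with arrays centred on 49 ribosomal protein genes (triangles), with limma's SE as bars and filled symbols where the adjusted p is under 0.05. Klf10 and Klf4 stay above 0 and Klf7 below 0 with filled symbols under each scaling, while Klf9 is filled only as deposited and Klf3 and Klf13 only with ribosomal centring.

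Differences between members within an array do not depend on such scalings. Of 45 pairs of members, the difference of log2 values did not overlap between treatments in 29. The share over pairs of all genes was not computed, so this count cannot be called high or low. Of those 29, 27 hold at least 1 of the 4 members called above, and among the 15 pairs of members that were not called the groups lay apart in 2, so the count largely restates those calls. With 3 arrays against 3 the exact two-sided permutation p cannot go below 0.1, so no pair can reach 0.05, and the value adjusted over the 45 pairs was 0.155 for those 29. Klf10 minus Klf7 changed by 1.86 from DMSO to camptothecin. Klf6 minus Klf7, the pair that supports axon growth, changed by 0.72, with an SD of 0.12 within camptothecin and 0.070 within DMSO. Klf4 minus Klf9, the pair that restrains it, changed by 0.19, and there the groups overlapped (exact permutation p = 0.3, adjusted 0.375).

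Among the Klf genes outside the 10, 5 of 8 listed were measured, of which Klf11 rose and Klf12 fell, where 11.3% of all genes rose and 9.35% fell. Klf12, a CtBP-binding repressor like Klf3, measured 9.13, 9.03 and 8.98 with camptothecin and 9.83, 9.70 and 9.76 with DMSO. Every camptothecin array lay below every DMSO array, and Klf12 fell by 0.71 on the log2 scale (SE 0.073, limma adjusted p = 0.00112). The erythroid factor Klf1 (0.041), Klf14 (-0.024) and Klf16 (0.094) did not pass the test as deposited. With ribosomal centring 1 of the 5 was higher and 2 were lower, where 2.3% of all genes were higher and 32% lower. Klf14 was then called lower (-0.29, limma adjusted p = 0.0267). Of 9 Sp genes 5 were measured, and 1 fell and 0 rose by limma (0 higher at an unadjusted p under 0.05). With ribosomal centring 3 Sp genes were lower, where 32% of all genes were (9.35% as deposited). Sp4, which is abundant in neurons, measured 8.57, 8.74 and 8.53 with camptothecin and 9.18, 9.15 and 9.10 with DMSO, without overlap, and fell by 0.53 on the log2 scale (SE 0.078, limma adjusted p = 0.00529). The other Sp genes changed by 0.22 (Sp6), 0.0018 (Sp7), -0.050 (Sp2) and -0.10 (Sp1) without passing.

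**Figure D4:**
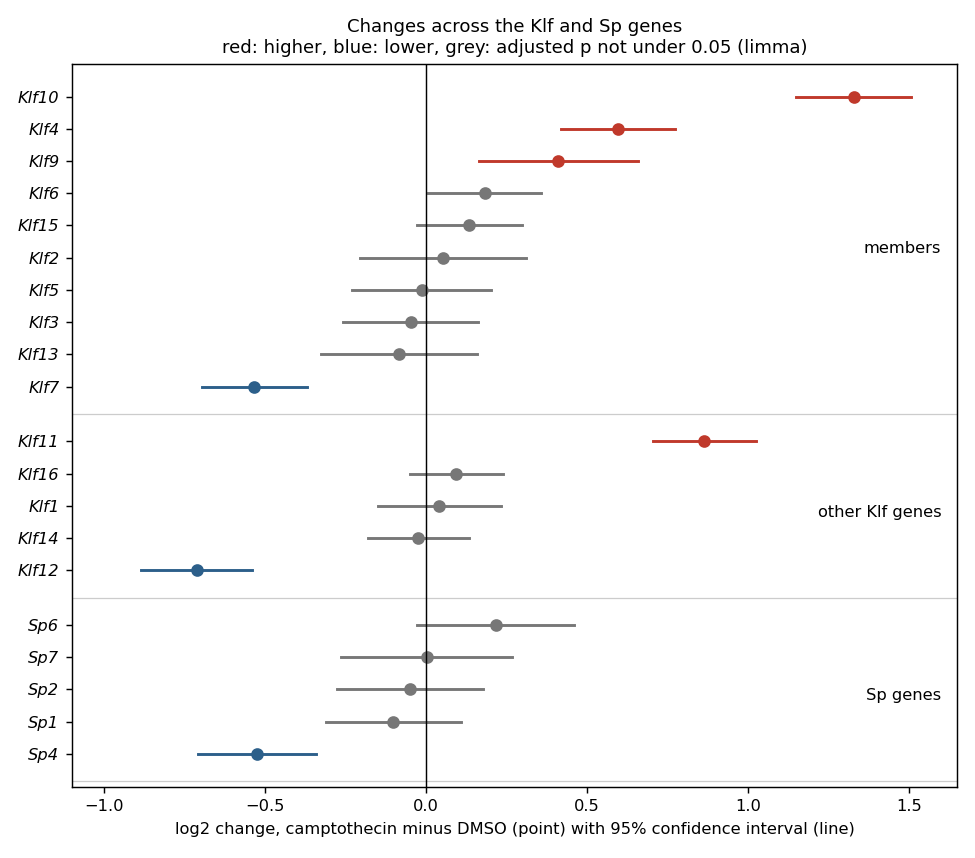
Log2 change with its 95% confidence interval for the 10 members, 5 other Klf genes and 5 Sp genes, red where higher, blue where lower and grey where the limma adjusted p is not under 0.05. Klf10 (1.33) and Klf11 (0.86) lie farthest to the right, and Klf12 (-0.71), Klf7 (-0.53) and Sp4 (-0.53) farthest to the left.

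The genes that fell had the longest annotated spans of the measured Klf and Sp genes. In GRCr8, used only for names and spans since the build behind the array is not known, Klf12 spans 432 kb, Klf7 92.7 kb and Sp4 65.3 kb. The genes that rose span 6.07 kb (Klf10), 11.8 kb (Klf11), 5.08 kb (Klf4) and 25.0 kb (Klf9). The members that did not pass span from 2.63 kb (Klf2) to 31.0 kb (Klf3). Long genes outside these families also fell, such as Nr3c1 (122 kb) and Mef2a (135 kb). Others were not called, such as Ntrk2 (315 kb) and Map2k5 (228 kb). Span and change were not tested against each other here, neither for these genes nor for all genes.

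**Figure D5:**
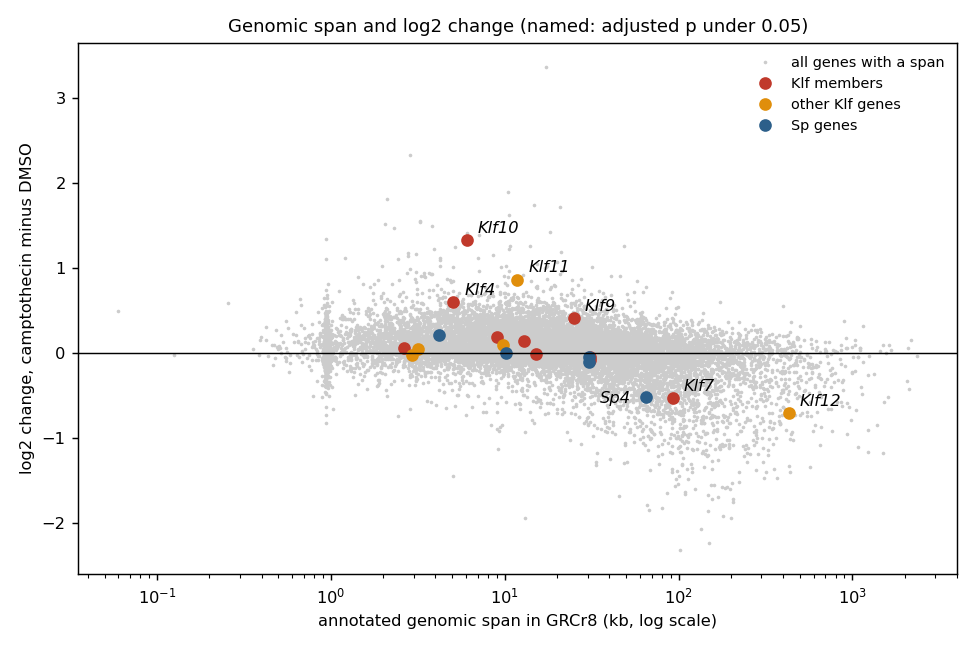
Annotated genomic span (kb, log axis) against log2 change for all genes with a span (grey) and for the members (red), other Klf genes (orange) and Sp genes (blue). The 4 named genes that rose span 25.0 kb or less, and the 3 that fell span 65.3 kb or more.

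Of 23 measured regulators known to act upstream of Klf genes 5 fell and 3 rose, where 9.35% of all genes fell and 11.3% rose, and the median change was -0.12 beside 0.060 for all genes. With ribosomal centring 14 were lower and 0 higher (32% and 2.3% of all genes). The glucocorticoid receptor Nr3c1, which induces Klf9 and Klf15, measured 6.03, 6.28 and 6.43 with camptothecin and 7.37, 7.42 and 7.38 with DMSO. All its camptothecin arrays lay below the DMSO arrays, and it fell by 1.14 on the log2 scale (SE 0.11, limma adjusted p = 0.000733). Mef2a, which with the kinase Mapk7 drives Klf2 and Klf4, fell by 0.99, and Mapk7 itself changed by -0.044 without passing. Creb1 fell by 0.91 and Stat3 by 0.57, and Smad2, a transducer of TGF-beta signals, by 0.53 (Smad2 was picked out after seeing its value). The 3 that rose, also named after their values were seen, were serum response factor Srf (0.43), its partner Elk4 (0.41) and the thyroid hormone receptor Thra (0.33). The call of Thra held in 7 of 17 alternatives, that of Srf in 13 and that of Elk4 in 15, and all 3 were lost with ribosomal centring (limma adjusted p = 0.432, 0.111 and 0.122).

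Cofactors and ubiquitin ligases of Kruppel-like factors fell in 9 of 20 measured genes and rose in 2, where 9.35% of all genes fell and 11.3% rose, with a median change of -0.11. With ribosomal centring 13 were lower and 0 higher (32% and 2.3% of all genes). Among the largest falls, the ubiquitin ligase Itch changed by -1.18 (SE 0.061, limma adjusted p = 6.47e-05) and Smurf2, a ligase of the TGF-beta pathway, by -1.11 (SE 0.095). The acetyltransferase Ep300, a coactivator of several members, changed by -0.93 (SE 0.081), and Ctbp2, the corepressor bound by Klf3, by -0.83 (SE 0.080). Those 4 passed in all 17 alternatives. Sin3a, the corepressor bound by Klf9, Klf10 and Klf13, fell by 0.42 on the log2 scale and Wwp1, a ligase of Klf5, by 0.54. The 2 that rose were Vhl (0.45) and Kat2a (0.38), and these last 4 were named after their values were seen. The call of Kat2a held in 7 of 17 alternatives and that of Vhl in 15, and both were lost with ribosomal centring (limma adjusted p = 0.297 and 0.0640).

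Genes reported as targets of Kruppel-like factors rose in 9 of 31 measured and fell in 0 by limma (3 lower at an unadjusted p under 0.05), where 11.3% of all genes rose and 9.35% fell, with a median change of 0.10. With median centring 7 were higher and 3 lower, where 6.29% of all genes were higher and 11.1% lower. With ribosomal centring 5 were higher and 6 lower, where 2.3% of all genes were higher and 32% lower. The 5 were Cdkn1a, Cdkn1b, Ccne1, Txnip and Prodh, while Cdkn1c, Ccnd1, Smad7 and L1cam were no longer called. The largest rises were the cyclin-dependent kinase inhibitor Cdkn1a (1.22, SE 0.090, limma adjusted p = 0.000274), a target of Klf4 and Klf6, and Txnip, an inhibitor of thioredoxin (0.93, SE 0.13). The proline dehydrogenase Prodh (0.59), a Klf15 target, and the cyclin Ccne1 (0.60) also rose. Prodh was dim, at 5.92 to 6.10 with camptothecin and 5.37 to 5.51 with DMSO. Many genes of this list have other regulators, so its counts are not a readout of the factors.

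By the smallest Euclidean distance between centred values over the 6 arrays, the genes most like Klf10 were Cdkn1a (0.20), the kinase Plk3 (0.21) and Armcx1 (0.23). Those most like Klf7 were Sec24a (0.050), a coat protein of secretory vesicles, Dcaf10 (0.076) and the galanin receptor Galr1 (0.078). These distances rest on 6 arrays that share 1 treatment difference.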

How the data were processed

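The 6 samples were grouped by the treatment in their titles. The deposited values are log2 expression values, 1 per transcript cluster and array, and RMA and oligo are the tools named, without role or version, in the submitters' processing notes. The probe annotation and the array's genome build were not given in the sources used here. GEO's platform annotation gave 1 symbol to 15310 of 29214 clusters, several to 323 and none to 13581; 15279 of the 15310 matched GRCr8 by gene identifier. Values were fitted as deposited with limma 3.58.1 (R 4.3.3, lmFit and eBayes, two-sided, Benjamini-Hochberg over all clusters, threshold 0.05), and the script was tested on simulated data. Changes are camptothecin minus DMSO on the log2 scale.

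The members and gene lists were chosen with earlier results of these data known. The text names all members, other Klf and Sp genes, up to 4 past-threshold genes with the largest change from each list, motor neuron markers, and the 3 genes nearest in pattern to the largest rise and fall. Further genes of the lists were named after their values were seen. Alternatives were quantile normalization again, 2 centrings, no dim clusters, a replicate block, trend and robust, array weights, 1-symbol clusters, the mean over clusters, a threshold of 0.01, treat, and each array left out. Pairs of arrays shared 14 to 34 exactly equal values.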

Additional observations from a re-analysis of the deposited data

How the results depend on the processing

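Members higher numbered 3 as deposited and 2 to 4 under every setting. Members lower numbered 1, and 3 with ribosomal centring (Klf3, Klf7 and Klf13) and 0 with treat against 1.2-fold, and with 1 array left out 2 to 3 were higher and 1 lower. Among all clusters, 2937 were higher and 2311 lower, against 1627 and 2743 with median centring, 604 and 8092 with ribosomal centring, 749 and 1379 at a threshold of 0.01, and 313 and 908 with treat. With 1 array left out they numbered 1187 to 2327 and 1581 to 2078. The cause of these differences was not tested. Same-numbered arrays correlated in their deviations from the group means at -0.084, 0.022 and 0.085. With 3 arrays per group these values cannot exclude a weak pairing, and none is stated. With the number as a block, 3 members were higher and 1 lower, and 1677 clusters were higher and 1794 lower. With median centring, ribosomal centring and the block, and at a threshold of 0.01 and with treat, lower clusters outnumbered higher ones, the opposite of the values as deposited. Leaving out 1 array could also reverse it, since the smallest higher count (1187) lies below the smallest lower count (1581).

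Some values of genes that were not called changed sign, without passing the test. Not all of them lay near 0 as deposited, where Klf6 was 0.18, Klf15 0.13 and Sp6 0.22. With quantile normalization again Klf2 was -0.012, Klf1 -0.024 and Sp7 -0.058, and with median centring Klf2 was -0.014, Klf1 -0.025 and Sp7 -0.065. With ribosomal centring Klf2 was -0.21, Klf6 -0.081, Klf15 -0.13, Klf1 -0.22, Klf16 -0.17, Sp6 -0.047 and Sp7 -0.26. Klf5 was 0.036 with array weights and 0.13 as the mean over its clusters. With 1 array left out, the values ranged from -0.057 to 0.14 for Klf2, -0.10 to 0.036 for Klf3, -0.074 to 0.070 for Klf5, -0.0062 to 0.099 for Klf1 and -0.091 to 0.085 for Sp7. The less bright Klf5 cluster, added after seeing the data, gave 0.27 and passed. Dim clusters such as those of Klf2 and Klf15 limit what could be detected.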
